A study of Arabidopsis thaliana with 9 samples.

Results

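The NIN-LIKE PROTEIN genes NLP1 to NLP9 encode the 9 Arabidopsis members of a family of RWP-RK transcription factors. They were taken by locus from the count files, in number order: AT2G17150 (NLP1), AT4G35270 (NLP2), AT4G38340 (NLP3), AT1G20640 (NLP4), AT1G76350 (NLP5), AT1G64530 (NLP6), AT4G24020 (NLP7), AT2G43500 (NLP8) and AT3G59580 (NLP9). All 9 have a row in each of the 9 files, among 28775 loci, and all 9 are among the 19496 loci with enough counts to be tested. The genes lie on 4 chromosomes of the TAIR10.1 assembly, with NLP1 at chr2:7466687-7471586 (minus), NLP2 at chr4:16777264-16782054 (minus), NLP3 at chr4:17954710-17958063 (plus). NLP4 at chr1:7154410-7158287 (plus), NLP5 at chr1:28639453-28643086 (plus), NLP6 at chr1:23959627-23963083 (plus) follow in number order. The last 3 are NLP7 at chr4:12479528-12484049 (plus), NLP8 at chr2:18061716-18066708 (plus) and NLP9 at chr3:22009008-22012804 (plus); the strand is given in parentheses. Each has 4 to 8 exons in its longest coding model. All family members were kept whatever their values, but the family itself was chosen by its log2 fold changes against wild type in earlier results of these data, so the comparisons with wild type are given as description and nothing rests on their number.

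The libraries hold root mRNA of 3 genotypes at an age of 2 weeks, in triplicate. Wild type was the accession Col-0. The 35S:miR858 plants overexpress the microRNA miR858, whose targets include MYB transcription factors, and the 35S:rMYB83 plants overexpress a form of the secondary wall regulator MYB83 that the microRNA does not cut. The cauliflower mosaic virus 35S promoter drives both transgenes and is active in most plant cells, and the labels do not say how many independent lines each genotype represents. The labels do not state the nitrate supply of the plants.

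NLP proteins carry an RWP-RK domain that binds nitrate-responsive DNA elements, a PB1 domain that joins NLP proteins to each other and to other factors, and an amino-terminal region through which nitrate signals act. In roots, nitrate holds NLP7 in the nucleus, where it switches on genes for nitrate uptake, nitrate reduction and a set of repressors that later damp the response. The founding member of the family, NIN, was described in the legume Lotus japonicus, where it is needed for root nodules.

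Total gene counts ran from 5313656 to 10648857 per library. MYB83 had 710, 801 and 903 counts in the 3 35S:rMYB83 libraries and 6 to 24 in the others, and the precursor locus MIR858A had 120, 200 and 227 counts in 35S:miR858 and 0 in the other 6 libraries, so both transgenes were read where the labels place them. The 8 root markers (PYK10, SHR, SCR, CASP1, COBL9, EXPA7, PIN2 and RHD6) were detected in every library and summed to 4563 to 6558 CPM (counts scaled to a common library size, with sizes corrected by edgeR's trimmed mean of M values) in wild type, 7258 to 8205 with miR858 and 7761 to 9906 with rMYB83. Of the 8, 3 rose in each line by edgeR, SHR and PIN2 in both, SCR in 35S:miR858 and PYK10 in 35S:rMYB83. Of all genes tested, 11.6% were higher in 35S:miR858 and 6.7% in 35S:rMYB83. DESeq2 called 4 of the 8 higher in 35S:miR858 and 3 in 35S:rMYB83. Most of the sum was PYK10 (4216 to 6252 CPM in wild type, 7396 to 9512 with rMYB83 and 6777 to 7801 with miR858), and the other 7 summed to 291 to 347, 365 to 395 and 404 to 482 CPM in the same order. EXPA7 and RHD6 had log2 fold changes of -0.32 to -0.02 and did not pass by edgeR. CASP1 (0.52 in 35S:miR858 and 0.20 in 35S:rMYB83) and COBL9 (0.17 and -0.05) did not pass either. The part of these markers in the NLP values was not tested. The 20 markers of green shoot tissue summed to 731 to 3977 CPM in wild type, 828 to 2043 with miR858 and 1000 to 7658 with rMYB83. At most 1 of the 20 was at 0 in any library, and Col-0 replicate 1 and 35S:rMYB83 replicate 1 held the largest shares, 0.444% and 0.761% of gene counts against 0.0746% to 0.201% elsewhere. None of the 20 passed in any comparison by edgeR or DESeq2, with 0 at an unadjusted p under 0.05. In libraries of whole roots, fewer cells of a type and less RNA per cell cannot be told apart.

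The promoters of 4 members are shown, since the members divide into genes far below wild type (NLP2, NLP8 and NLP9) and genes near it (NLP7). Each is the 250 bases upstream of the annotated gene start, read from RefSeq's TAIR10.1 assembly and written 5′ to 3′ on the gene's strand. Capitals mark the words searched on both strands: the 8 words of the secondary wall MYB-responsive element (SMRE) bound by MYB83 and MYB46, which read ACCNANN with A or T at the fourth base, A or C at the sixth and C or T at the seventh, and GAATC and GAATATTC, which the nitrate-induced repressors of the NIGT1 group bind.
NLP2, chr4:16782055-16782304 on the minus strand: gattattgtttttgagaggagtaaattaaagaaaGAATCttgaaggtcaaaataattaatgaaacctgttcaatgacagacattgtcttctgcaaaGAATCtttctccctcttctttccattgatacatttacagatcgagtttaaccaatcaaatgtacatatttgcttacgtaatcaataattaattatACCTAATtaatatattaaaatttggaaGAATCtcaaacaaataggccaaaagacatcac
NLP8, chr2:18061466-18061715 on the plus strand: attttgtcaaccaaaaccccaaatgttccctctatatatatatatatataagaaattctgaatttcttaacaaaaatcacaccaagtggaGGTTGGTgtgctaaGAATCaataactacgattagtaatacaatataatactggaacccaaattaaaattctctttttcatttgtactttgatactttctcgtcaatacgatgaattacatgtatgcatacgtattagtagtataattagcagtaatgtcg
NLP9, chr3:22008758-22009007 on the plus strand: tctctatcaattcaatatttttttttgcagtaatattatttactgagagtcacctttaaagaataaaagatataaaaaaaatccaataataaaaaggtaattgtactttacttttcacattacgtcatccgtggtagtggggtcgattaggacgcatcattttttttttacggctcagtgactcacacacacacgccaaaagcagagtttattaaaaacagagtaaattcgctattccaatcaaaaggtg
NLP7, chr4:12479278-12479527 on the plus strand: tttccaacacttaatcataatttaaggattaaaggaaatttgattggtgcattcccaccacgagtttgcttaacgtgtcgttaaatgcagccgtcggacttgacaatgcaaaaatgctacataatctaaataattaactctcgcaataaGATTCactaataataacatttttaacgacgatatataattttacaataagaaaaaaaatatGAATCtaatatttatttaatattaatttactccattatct

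An SMRE word was found in the 250 bases of 3 of the 9 genes, NLP2 at 59 bases, NLP5 at 46 bases and NLP8 at 160 bases before the start, against 29.4% of 27443 promoters of the same length. GAATC was found in 6 of 9 (NLP2, NLP3, NLP5, NLP6, NLP7 and NLP8), against 38.8% of promoters. GAATATTC was in 0 of 9, against 0.86%. The 14 matches did not overlap each other. NLP1, NLP4 and NLP9 held none of these words in this window. The annotated model of NLP3 begins at its coding sequence, so its window may not be a promoter in the same sense.

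The mature miR858a sequence of the reference, with its seed (bases 2 to 8) in capitals, is set below beside the best match in MYB83 and in NLP7, the member with the closest match. In the mRNA sites, written 5′ to 3′ in DNA letters, capitals mark bases that form Watson-Crick pairs with the microRNA.
miR858a, chr1:26773695-26773715 on the minus strand: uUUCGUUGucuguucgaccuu
MYB83 site: cAGGTaGAACAGACAACGAgA
NLP7 site: cgaGTatAACAGACgACcAAg

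A penalty was counted for each site, with 1 per mismatch and 0.5 per G:U pair, doubled opposite microRNA bases 2 to 13. The MYB83 site scored 3.0, with 2 mismatches and 1 G:U pair. NLP7 scored 8.0, which 6.41% of 27440 genes reach or better. The other 8 members scored 9 to 10, which 20.3% to 47.8% of genes reach or better. The median over all these genes was 10.5. A penalty of 5.0 or less was reached by 45 genes (0.164%) and by none of the 9 NLP genes.

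In both transgenic lines 7 of the 9 members were lower than in Col-0 and the same 2, NLP6 and NLP7, were not. Of all genes tested, 13.5% were lower in 35S:miR858 and 9.73% in 35S:rMYB83 at an adjusted p under 0.05 (edgeR's quasi-likelihood test, Benjamini-Hochberg). For the 7 members every library of each line lay below every Col-0 library, which held for 21.8% of all genes in 35S:miR858 and for 17.9% in 35S:rMYB83. The 9 members had a median log2 fold change of -2.47 (35S:miR858) and -2.04 (35S:rMYB83), where all genes tested had medians of -0.02 and 0.01. The Col-0 libraries are shared by both comparisons, so these values are not independent of each other.

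**Figure D1:**
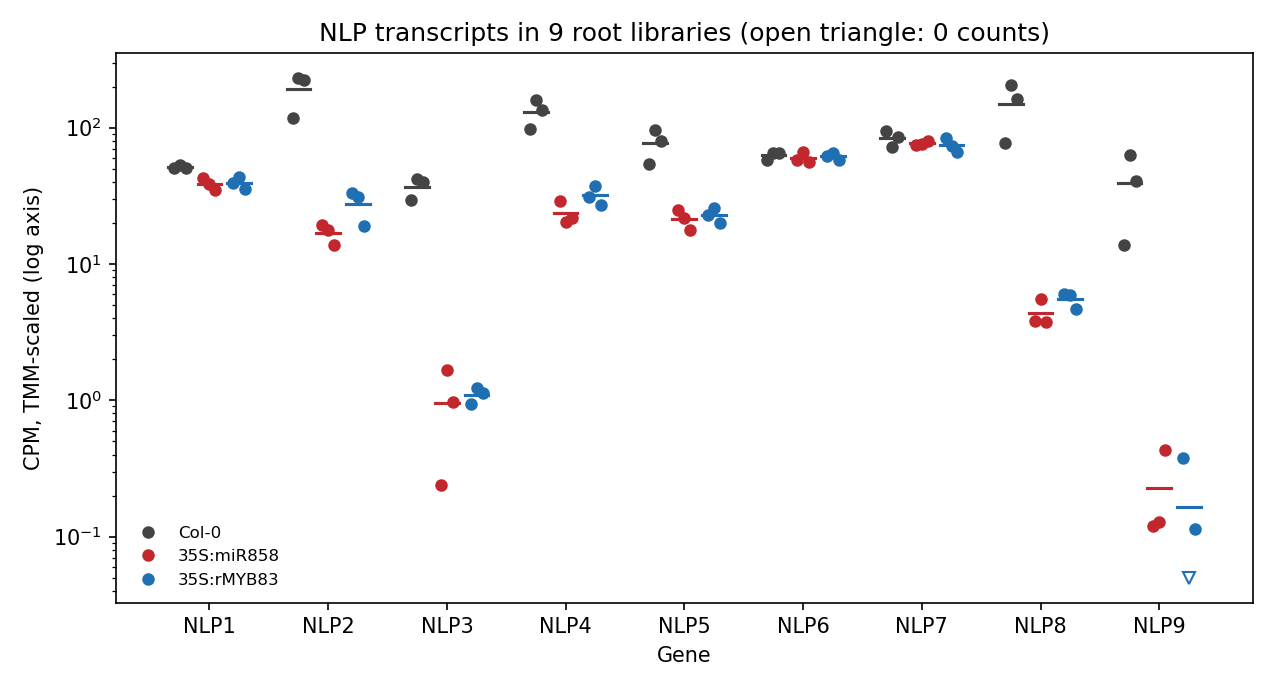
CPM of each NLP gene in every library, on a log axis, with points for single libraries, short lines for genotype means and an open triangle for the 1 library with 0 counts, drawn at the foot of the axis. The 3 genotypes lie together for NLP6 and NLP7, and NLP9 goes from 13.7 to 62.8 CPM in Col-0 to 0.430 CPM or less in the lines.

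NLP7, whose protein binds nitrate and leads the early nitrate response, was measured at 93.9, 71.7 and 85.7 CPM in Col-0. It had 75.1, 75.7 and 80.4 CPM in 35S:miR858 and 84.2, 72.9 and 66.5 CPM in 35S:rMYB83. The lines and the wild type overlapped. Its log2 fold change was -0.12 in 35S:miR858 (95% interval -0.39 to 0.14) and -0.17 in 35S:rMYB83 (-0.44 to 0.10).

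NLP6, the closest relative of NLP7 and a partner in nitrate-responsive transcription, had 58.0, 65.3 and 64.7 CPM in Col-0. The values were 58.2, 66.6 and 55.9 CPM in 35S:miR858 and 61.5, 65.3 and 58.3 CPM in 35S:rMYB83. All 3 genotypes overlapped. Its log2 fold change was -0.06 (-0.27 to 0.16) in 35S:miR858 and -0.02 (-0.24 to 0.19) in 35S:rMYB83.

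NLP8, which drives nitrate-promoted seed germination, had 76.7, 206 and 162 CPM in Col-0. It was read at 3.84, 5.51 and 3.77 CPM in 35S:miR858 and at 6.06, 5.87 and 4.65 CPM in 35S:rMYB83. Every library of both lines lay far under the lowest Col-0 library. The log2 fold change was -5.08 (SE 0.37) in 35S:miR858 and -4.75 (SE 0.36) in 35S:rMYB83, or 33.9 and 27.0 times lower.

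NLP9, the nearest paralogue of NLP8, had 159, 693 and 339 counts in Col-0, which are 13.7, 62.8 and 40.9 CPM. It had 1, 1 and 4 counts in 35S:miR858 and 2, 0 and 1 in 35S:rMYB83. The gene was therefore close to the limit of detection in both lines. Summed counts per scaled library size were 163 times lower in 35S:miR858 (95% counting interval 74.7 to 445) and 286 times lower in 35S:rMYB83 (97.5 to 1390), and the intervals cover counting error only. The fitted log2 fold change of -7.29 in 35S:miR858 became -8.15 without 35S:miR858 replicate 3, and that of -8.03 in 35S:rMYB83 became -9.07 without 35S:rMYB83 replicate 1, -7.42 without 35S:rMYB83 replicate 2 and -9.46 without the pair of libraries highest in green markers.

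NLP3 had 29.2, 41.7 and 39.8 CPM in Col-0. Its counts fell to 2, 13 and 9 in 35S:miR858 and to 5, 10 and 10 in 35S:rMYB83, from 339, 460 and 330 in Col-0. No library of either line reached 2 CPM. The log2 fold change was -5.26 (SE 0.35) in 35S:miR858 and -5.02 (SE 0.35) in 35S:rMYB83, and the former became -5.86 without 35S:miR858 replicate 2. Among the 19496 genes tested, 51 (0.262%) had a log2 fold change this low or lower in 35S:miR858 and 26 (0.133%) in 35S:rMYB83, NLP3 included. The family was chosen by such fold changes, so these shares describe the position of NLP3 and do not test it.

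NLP2, which acts beside NLP7 in the response to nitrate and in vegetative growth, had 118, 231 and 223 CPM in Col-0. It was at 19.5, 17.7 and 13.7 CPM in 35S:miR858 and 32.9, 30.8 and 19.0 CPM in 35S:rMYB83. Both lines lay below wild type and overlapped each other at the lowest 35S:rMYB83 value. The gene fell 11.3 times in 35S:miR858 (log2 -3.50, SE 0.30) and 6.96 times in 35S:rMYB83 (log2 -2.80, SE 0.29).

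NLP4 had 98.1, 160 and 135 CPM in Col-0, 28.9, 20.4 and 21.8 CPM in 35S:miR858, and 31.0, 37.4 and 27.0 CPM in 35S:rMYB83. It was 5.53 and 4.12 times lower in the lines. NLP5, its nearest paralogue, had 54.0, 96.3 and 80.02 CPM in Col-0, 24.7, 21.6 and 17.8 CPM in 35S:miR858, and 22.7, 25.7 and 20.1 CPM in 35S:rMYB83. It was 3.59 and 3.36 times lower. For both genes the lines lay below all Col-0 libraries.

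NLP1 showed the smallest called difference, with 50.3, 53.2 and 50.4 CPM in Col-0 and 42.6, 38.7 and 34.9 CPM in 35S:miR858. The 35S:rMYB83 libraries had 39.4, 43.8 and 35.5 CPM. The 3 Col-0 values were close together and above all 6 others. The log2 fold change was -0.41 (SE 0.11) in 35S:miR858 and -0.37 (SE 0.11) in 35S:rMYB83. The call was lost without Col-0 replicate 2, 35S:miR858 replicate 2 or 35S:miR858 replicate 3 in the former comparison (adjusted p 0.0516 to 0.0632) and without any Col-0 library, 35S:rMYB83 replicate 1 or 35S:rMYB83 replicate 3 in the latter (0.0511 to 0.114), by edgeR's quasi-likelihood test.

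**Figure D2:**
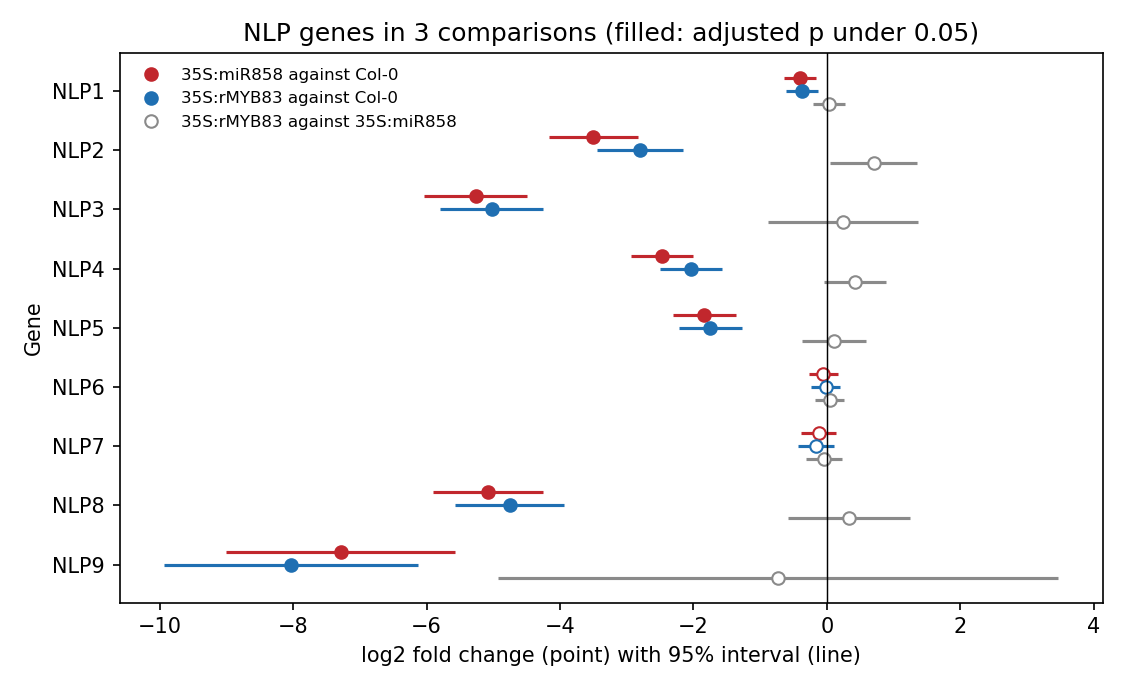
Log2 fold change of each NLP gene in the 3 comparisons, with lines for 95% intervals of the edgeR fit and filled points for an adjusted p under 0.05. The comparisons with Col-0 reach -7.29 and -8.03 for NLP9, fitted values that rest on 6 and 3 counts, while no point of the direct comparison is filled.

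The direct comparison of 35S:rMYB83 with 35S:miR858 asks whether the 2 lines differ from each other. None of the 9 passed, against 4.05% of all genes. By edgeR's quasi-likelihood test 1 member, NLP2, had an unadjusted p under 0.05, and DESeq2 called 0. NLP2 was higher in 35S:rMYB83 by 0.70 on the log2 scale (95% interval 0.04 to 1.35, adjusted p = 0.247) and NLP4 by 0.42 (-0.04 to 0.89, adjusted p = 0.32). The interval was -0.21 to 0.27 for NLP1, -0.38 to 0.58 for NLP5, -0.18 to 0.25 for NLP6 and -0.32 to 0.22 for NLP7, so differences above 1.5-fold lie outside it for these 4. For NLP3 and NLP8 the intervals were -0.89 to 1.37 and -0.59 to 1.25, and for NLP9 -4.93 to 3.46, so differences within these wider ranges are not excluded. All 9 members overlapped between the lines. Of all genes, 12.5% had every 35S:rMYB83 library below every 35S:miR858 library, and the share in the opposite direction was not counted.

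Levels were compared between genes as CPM per kb of merged exon. In Col-0 the order was NLP2 (42.9 ± 14.1, SD, n = 3), NLP4 (37.0 ± 8.80), NLP8 (35.8 ± 15.8), NLP7 (24.1 ± 3.22), NLP5 (22.9 ± 6.36), NLP6 (21.6 ± 1.40), NLP3 (13.6 ± 2.48), NLP9 (12.5 ± 7.84) and NLP1 (11.1 ± 0.349). Neighbours in this order overlapped in range except NLP6 and NLP3, and NLP9, with 4.37 to 20.01 CPM per kb, also overlapped NLP5, NLP6 and NLP8 above it.

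The order was another in the lines, where NLP7 and NLP6 were highest and overlapped each other. In 35S:miR858 they had 22.1 ± 0.829 and 20.7 ± 1.94 CPM per kb, followed by NLP1 (8.34 ± 0.835), NLP4 (6.69 ± 1.29), NLP5 (6.37 ± 1.04), NLP2 (3.80 ± 0.665), NLP8 (1.06 ± 0.237), NLP3 (0.354 ± 0.263) and NLP9 (0.0721 ± 0.0564). In 35S:rMYB83 NLP7 (21.4 ± 2.58) and NLP6 (21.2 ± 1.21) were followed by NLP4 (8.97 ± 1.48), NLP1 (8.52 ± 0.892), NLP5 (6.80 ± 0.835), NLP2 (6.19 ± 1.69), NLP8 (1.34 ± 0.184), NLP3 (0.407 ± 0.0523) and NLP9 (0.0523 ± 0.0620). Counted per kb of coding sequence, 4 members in Col-0 and 5 in 35S:rMYB83 kept their rank, and all 9 did in 35S:miR858.

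The summed level of the 9 genes was 162, 265 and 237 CPM per kb in Col-0, 71.7, 71.1 and 65.7 in 35S:miR858, and 78.7, 79.8 and 66.2 in 35S:rMYB83. NLP6 and NLP7 together gave 43.1 to 46.9 CPM per kb in wild type, 41.6 to 44.6 with miR858 and 39.2 to 45.4 with rMYB83. Their share of the sum was 21.7 ± 6.59% in wild type, 61.7 ± 3.30% with miR858 and 57.0 ± 2.43% with rMYB83 (SD, n = 3). Per kb of merged exon, the summed NLP transcript in the lines was thus mostly NLP6 and NLP7, and in Col-0 mostly the other 7 genes. These shares depend on the length used and were not computed per kb of coding sequence.

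**Figure D3:**
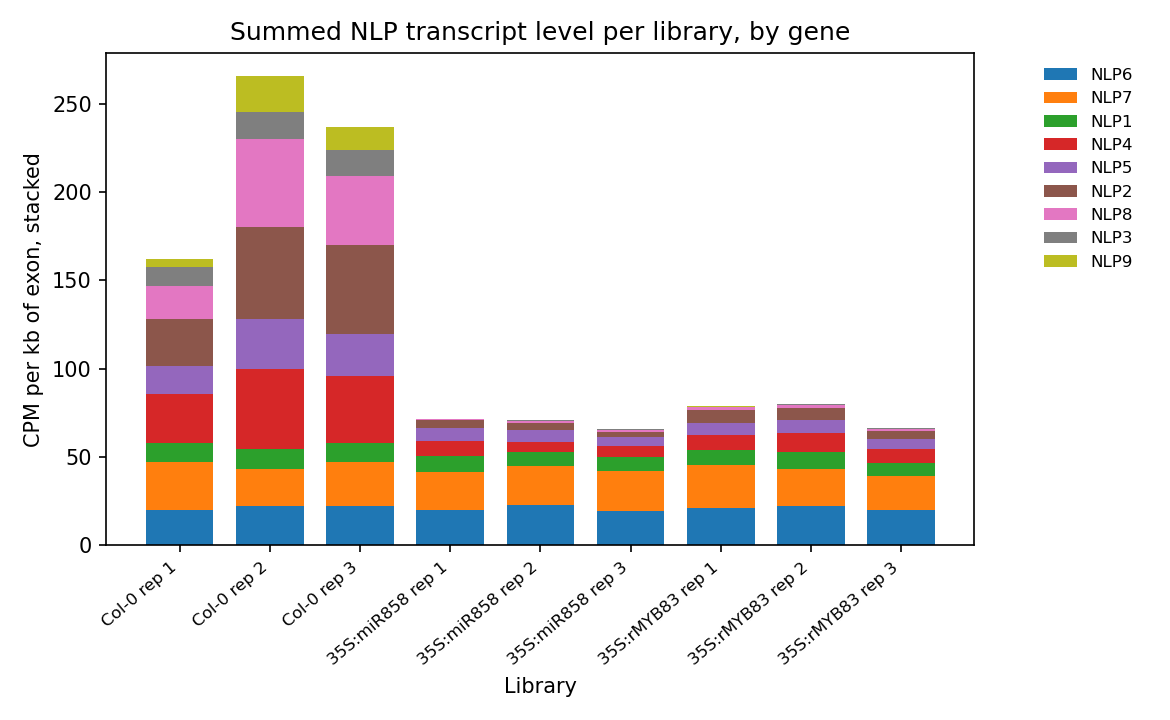
Summed level of the NLP genes in each library as CPM per kb of exon, stacked by gene from NLP6 and NLP7 at the foot. The lower 2 segments stay between 39.2 and 46.9 CPM per kb in all 9 libraries while the rest of the stack shrinks in the lines.

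Ratios within a library do not depend on how libraries are scaled. NLP8 stood to NLP7 at 0.687, 2.41 and 1.59 in Col-0, at 0.0394 to 0.0612 in 35S:miR858 and at 0.0589 to 0.0678 in 35S:rMYB83 (levels per kb). NLP2 stood to NLP7 at 0.986, 2.52 and 2.03 in Col-0, at 0.133 to 0.202 in 35S:miR858 and at 0.223 to 0.331 in 35S:rMYB83. In both ratios the Col-0 libraries lay above all 6 others.

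Wild-type libraries differed among themselves by unlike amounts. The highest Col-0 library was 4.58 times the lowest for NLP9, 2.68 times for NLP8, 1.96 times for NLP2, 1.78 times for NLP5, 1.63 times for NLP4, 1.43 times for NLP3, 1.31 times for NLP7, 1.13 times for NLP6 and 1.06 times for NLP1. The median over all genes was 1.28 times, so NLP3, with the second largest fall in both lines, was near it. Col-0 replicate 1 was the lowest of the 3 for 8 of the 9 members, NLP7 being the exception, and for 40.3% of all genes. That library also had the highest green marker share of the Col-0 libraries, and the part of this difference in the NLP values was not tested. Without it and 35S:rMYB83 replicate 1, 7 members were lower in 35S:miR858 and 6 in 35S:rMYB83, where NLP1 no longer passed (edgeR adjusted p = 0.107) at the same log2 fold change of -0.37.

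The coding sequences fall into close pairs, of which NLP4 and NLP5 share 81.2% of aligned bases, NLP1 and NLP2 80.7%, NLP8 and NLP9 80.3%, and NLP6 and NLP7 71.3%, while the other of the 36 pairs share at most 65.2%. The longest identical stretch between members is 44 bases, in NLP1 and NLP2. Likeness of expression was measured as the root mean square difference of centred log2 CPM over the 9 libraries, with a prior count of 2. The prior count damps differences at low counts. The root mean square difference was 0.182 between NLP6 and NLP7, 0.281 between NLP4 and NLP5, 0.951 between NLP8 and NLP9 and 1.33 between NLP1 and NLP2. Members outside these sequence pairs were also near, NLP1 to NLP6 (0.191) and NLP7 (0.21), NLP2 to NLP4 (0.469) and NLP3 to NLP8 (0.486). Nearness by this measure thus did not follow the sequence pairs alone. NLP2 stood to NLP1 at 2.45, 4.54 and 4.61 in wild type, 0.409 to 0.476 with miR858 and 0.556 to 0.872 with rMYB83 (levels per kb), so within this pair NLP2 was above NLP1 in wild type and below it in both lines.

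By the same distance, GLN1;4, a cytosolic glutamine synthetase, was the gene nearest to both NLP8 (0.293) and NLP3 (0.354), with log2 fold changes of -5.30 and -5.08 in the lines. NLP8 itself was the second nearest to NLP3 (0.486), and AT4G01390 followed for NLP3 (0.503) and for NLP8 (0.354), the latter ahead of AT4G33040 (0.363). AT4G01390 had log2 fold changes of -7.46 and -7.31 in the lines, and AT4G33040 had -4.79 and -4.27. Those of NLP8 were -5.08 and -4.75, and those of NLP3 -5.26 and -5.02. NLP9 was nearest to AT5G04120 (0.614), AT5G38910 (0.672) and the ammonium transporter AMT1;5 (0.724). Their log2 fold changes in 35S:miR858 and 35S:rMYB83 were -5.92 and -6.65, -10.25 and -8.21, and -10.79 and -7.03. NLP9 had -7.29 and -8.03. Genes near by this distance thus need not share a fitted fold change. The fitted values of NLP9 rest on 6 counts in 35S:miR858 and 3 in 35S:rMYB83.

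For NLP2 the nearest were AT5G59050 (0.209), the mannanase gene MAN1 (0.269) and AT2G34610 (0.275). For NLP4 they were AT1G11700 (0.132), AT1G68470 (0.147) and AT1G48870 (0.176). NLP5 was nearest to the galactan synthase GALS2 (0.120), the glucosinolate S-oxygenase FMO GS-OX4 (0.128) and the sulphate transporter SULTR3;4 (0.130). The genes nearest to NLP1, AT5G54870 (0.059), OCT6 (0.072) and AT4G11800 (0.075), and to NLP7, AT2G32070 (0.050), AT2G21340 (0.063) and AT5G58210 (0.069), lay at smaller distances still. The distance is not scaled by how much a gene varies, so small values for genes that change little do not show closer likeness.

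NLP1, NLP4 and NLP5 overlap a gene on the opposite strand, and no source used here says whether counting took strand into account, so their values are uncertain to that extent. NLP1 has 212 exon bases within the span of AT2G17140, NLP4 462 within ASG5, and NLP5 749 within AT1G76360 and AT1G09617. The spans include introns of the partners. ASG5 had 14.5 ± 0.317 CPM in Col-0 and 10.7 ± 1.94 and 10.9 ± 2.19 in the lines, AT1G76360 had 33.0 ± 3.98, 22.7 ± 5.63 and 23.9 ± 4.46, and AT2G17140 had 5.71 ± 0.519, 4.82 ± 0.929 and 5.91 ± 0.415 (SD, n = 3). None of these 3 partners passed in either comparison with Col-0 (edgeR adjusted p 0.0665 to 0.921). AT1G09617 was not analysed here.

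The RKD genes, which carry the RWP-RK domain without the nitrate-responsive region and act in egg cells and embryos, had too few counts to test. RKD1 and RKD4 had 0 counts in all 9 libraries, RKD2 and RKD3 at most 2 and RKD5 3 to 13.

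Of 10 genes known to act upstream of NLP proteins, 1 was higher and 1 lower in 35S:miR858, near the 11.6% and 13.5% of all genes. In 35S:rMYB83 2 of the 10 were higher and 0 lower (edgeR and DESeq2, 3 at an unadjusted p under 0.05 in either direction), against 6.7% and 9.73% of all genes. CIPK23, a kinase of the nitrate transceptor NPF6.3, had 57.2 to 91.0 CPM in wild type, 123 to 169 with miR858 and 131 to 166 with rMYB83. It rose by 1.02 (SE 0.18, adjusted p = 0.00303) and 1.05 (SE 0.18, adjusted p = 0.00408) on the log2 scale (edgeR). NPF6.3 rose in 35S:rMYB83 (log2 2.14, SE 0.26, adjusted p = 0.000716) and had a log2 fold change of 0.20 in 35S:miR858. The calcium sensor CBL9 fell in 35S:miR858 (log2 -0.52, SE 0.15, adjusted p = 0.0303). The kinases CPK10, CPK30 and CPK32, which phosphorylate NLP7 on nitrate, had log2 fold changes of -0.29 to 0.35 in the comparisons with Col-0 and did not pass.

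Among regulators that act beside NLP proteins, 7 of 8 were tested and BZIP1 had 0 counts. The nitrate-responsive MADS factor ANR1 (log2 -1.61, SE 0.42, adjusted p = 0.019) and SPL9 (log2 -2.06, SE 0.61, adjusted p = 0.0331, 2 to 36 counts per library) fell in 35S:miR858. In 35S:rMYB83 edgeR and DESeq2 called 0 of the 7, with 3 at an unadjusted p under 0.05. Of all genes 13.5% were lower in 35S:miR858, and 9.73% were lower and 6.7% higher in 35S:rMYB83, so counts this small are near the background. The lowest adjusted p there was that of NRG2, a partner of NLP7 (log2 -0.24, SE 0.09, adjusted p = 0.115).

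The nitrate-induced repressors, which the NLP proteins activate, were higher than in Col-0 in 9 of 9 cases in 35S:miR858 and in 8 of 9 in 35S:rMYB83, against 11.6% and 6.7% of all genes. Their median log2 fold changes were 1.61 and 1.24. LBD38, which represses nitrate and anthocyanin genes, had 39.3, 22.0 and 38.8 CPM in wild type, 90.4 to 116 with miR858 and 103 to 111 with rMYB83, and rose by 1.66 (SE 0.20, adjusted p = 0.000362) and 1.67 (SE 0.20, adjusted p = 0.00064). HRS1, a NIGT1-type repressor, rose by 1.16 (SE 0.16, adjusted p = 0.000683) and 1.17 (SE 0.16, adjusted p = 0.00118). BT1, a BTB scaffold protein, was the member that did not pass in 35S:rMYB83 (log2 1.13, adjusted p = 0.0737). In the direct comparison 0 of 9 passed by edgeR or DESeq2, with 2 at an unadjusted p under 0.05.

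Of 16 genes of nitrate uptake and reduction, 14 were tested. By edgeR 5 were higher and 5 lower in 35S:miR858, and 3 higher and 3 lower in 35S:rMYB83. DESeq2 called 5 higher and 5 lower in 35S:miR858, and 5 higher and 3 lower in 35S:rMYB83. In each line 10 of the 14 had an unadjusted p under 0.05 by edgeR. Of all genes, 11.6% were higher and 13.5% lower in 35S:miR858, and 6.7% and 9.73% in 35S:rMYB83. The high-affinity transporter NRT2.5 had 1570, 2394 and 1514 counts in Col-0, 0 in all 3 35S:miR858 libraries and 0, 2 and 0 in 35S:rMYB83. It was at least 1500-fold lower in 35S:miR858, where the floor is 3 counts summed over its libraries, and 1970 times lower in 35S:rMYB83 (95% counting interval 545 to 16300). NRT2.4 had 99, 167 and 135 counts in Col-0, 1, 0 and 0 in 35S:miR858, and 3, 4 and 13 in 35S:rMYB83, and fell in both lines. The vacuolar nitrate importer CLCA rose by 1.48 (SE 0.18, adjusted p = 0.000417) and 1.25 (SE 0.18, adjusted p = 0.00173), and the root ferredoxin reductase RFNR1 by 0.50 (SE 0.10, adjusted p = 0.00444) and 0.41 (SE 0.10, adjusted p = 0.0166), by edgeR on the log2 scale.

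**Figure D4:**
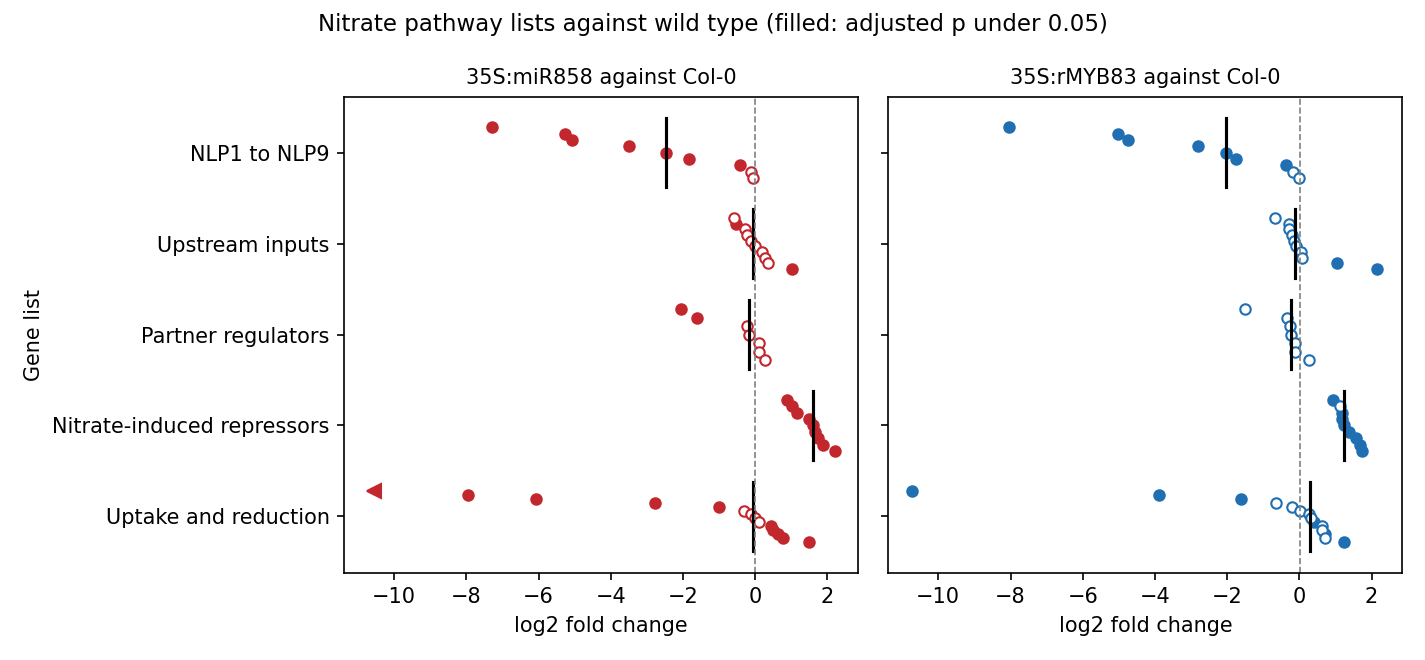
Log2 fold changes of the NLP genes and of 4 lists of nitrate pathway genes in both lines against Col-0, with filled points for an adjusted p under 0.05, black lines for list medians, a dashed line for the median of all genes and a triangle for the bound of NRT2.5, which had 0 counts in 35S:miR858. The NLP medians lie at -2.47 and -2.04 and those of the nitrate-induced repressors at 1.61 and 1.24.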

How the data were processed

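Roots of 3 genotypes were sequenced as mRNA, with 3 libraries each. The deposited files hold counts per gene as whole numbers. Per the submitters' processing notes, the authors used FastQC, Trimmomatic, TopHat2 2.0.14, HTSeq and the TAIR10 build, with settings not given in the sources used here. Unassigned reads stayed out. Of the reads in genes, outside genes or ambiguous, those outside genes were 3.62% to 5.96% and ambiguous ones 1.72% to 2.08%. Non-unique alignments are not part of these shares and numbered 1.36 to 1.99 per gene count. The 18S ribosomal RNA locus held 7.36% to 14.3% of gene counts. Reads common to close paralogues may have been lost as non-unique.

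Counts were tested with edgeR 4.0.16 in R 4.3.3 (filterByExpr, TMM factors 0.9297 to 1.1173, quasi-likelihood F test, 1 fit of 9 libraries, 19496 genes, Benjamini-Hochberg adjusted p under 0.05), checked on simulated counts. SE is the log2 fold change over the square root of F, and 95% intervals use the t distribution of the fit. Levels use merged exons of TAIR10.1, matched by locus, since the files hold no coordinates. No label ties replicates to separate plantings, so p-values cover only the spread among these libraries. Replicates differed by a chi-square of 6.75 to 24.8 per degree of freedom.

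Same-numbered libraries correlated at 0.548, 0.241 and 0.141 between 35S:rMYB83 and Col-0 (deviations from genotype means). Between 35S:miR858 and Col-0 the values were -0.0598, 0.122 and -0.258. Between 35S:rMYB83 and 35S:miR858 they were -0.104, 0.312 and -0.131. Only the values between 35S:rMYB83 and Col-0 meet the rule of every pair above 0.1. Differently numbered 35S:rMYB83 and Col-0 libraries ran from -0.538 to 0.464, the latter for replicates 2 and 3, so these values do not establish pairing. The main fit was unpaired. Alternatives were DESeq2 1.42.0, other scalings, no filter, the 2 genotypes alone, a replicate block, single libraries left out, the libraries highest in green markers left out, and coding length. All members are named. From each pathway list and comparison up to 2 per direction with the smallest adjusted p were eligible (otherwise the smallest p), and for NLP7 and each called member the 3 nearest genes. CPK10, CPK30, CPK32 and the RKD genes were named after their values were seen. The members and lists were chosen with earlier results of these data known.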

Additional observations from a re-analysis of the deposited data

Results flagged for a closer look

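In the direct comparison of 35S:rMYB83 with 35S:miR858, 3 of the 40 pathway list genes tested differed, NRT2.1, NPF6.3 and NIA2. None of the 9 NLP genes did, and 4.05% of all genes did. With counts this small, no contrast between these sets is drawn. NRT2.1, the main high-affinity nitrate transporter of roots, had 212, 196 and 245 CPM in Col-0, 5.64, 2.05 and 2.05 in 35S:miR858, and 32.2, 108 and 273 in 35S:rMYB83, a log2 difference of 5.42 (SE 0.76, adjusted p = 0.00459). Its 35S:rMYB83 libraries differed widely among themselves. NPF6.3, the nitrate transceptor, had 12.1 to 20.5 CPM in Col-0, 15.8 to 22.0 in 35S:miR858, and 57.4, 102 and 59.0 in 35S:rMYB83, a difference of 1.95 (SE 0.26, adjusted p = 0.00409). NIA2, the main nitrate reductase, had 519 to 606 CPM in wild type, 229 to 320 with miR858 and 421 to 617 with rMYB83, a difference of 0.81 (SE 0.17, adjusted p = 0.0281). In CPM, all 3 were higher in each 35S:rMYB83 library than in any 35S:miR858 library. The log2 differences and adjusted p-values are from edgeR's quasi-likelihood test over all genes.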

How the results depend on the processing

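The count of lower NLP genes was 6 or 7 in both lines under every alternative run, and 0 in the direct comparison. Of 430 alternative values for single members, 421 kept their side of the threshold and 9 no longer passed, all for NLP1. No called member changed sign, and 9 of the 206 values for members that had not passed did, all with adjusted p of 0.847 or more (edgeR). The replicate block gave 7, 7 and 0 members. Library totals in place of TMM moved the median of all genes to -0.16 in 35S:miR858 and -0.10 in 35S:rMYB83, with 4148 lower and 1355 higher genes in 35S:miR858 (2629 and 2271 with TMM) and 842 higher in 35S:rMYB83 (1306 with TMM). On these totals 5 pathway list genes were lower in 35S:rMYB83 (3 with TMM). In the direct comparison DESeq2 gave 575 lower genes (edgeR 301), 1 lower pathway list gene (edgeR 0) and 6 higher ones (edgeR 3). There the higher pathway list genes were 5 with the 2 genotypes alone and 6 without the libraries highest in green markers, which also gave 179 lower genes. Single libraries left out gave, in 35S:miR858, 5 to 9 lower pathway list genes (5 without Col-0 replicate 3, 8 with all libraries) and 1493 to 2277 higher genes (1493 without 35S:miR858 replicate 2). In 35S:rMYB83 they gave 3 to 5 lower pathway list genes (5 without 35S:miR858 replicate 3), 1223 to 2254 lower genes (1223 without Col-0 replicate 3) and 783 to 1537 higher genes (802 without Col-0 replicate 2, 783 and 804 without 35S:rMYB83 replicates 2 and 3). In the direct comparison they gave 0 to 1 lower pathway list genes (1 without 35S:miR858 replicate 1), 2 to 5 higher ones (5 without Col-0 replicate 1), 84 to 398 lower genes (84 without 35S:miR858 replicate 2; 96, 102 and 180 without 35S:rMYB83 replicates 1, 2 and 3) and 238 to 594 higher genes (238 and 310 without 35S:miR858 replicates 2 and 3; 313 and 263 without 35S:rMYB83 replicates 1 and 2). The causes were not tested. Per kb of coding sequence the NLP sums were 303 (Col-0), 90.1 (35S:miR858) and 98.0 (35S:rMYB83). Depth limits NLP9 and NLP3 in the lines, where they had at most 13 counts.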
